A study of Sus scrofa with 2 samples.

Results

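The genes described here move, store and regulate iron: the plasma carriers TF, HPX and CP, the ferritin chains FTL and FTH1, the transferrin receptors TFRC and TFR2, the iron hormone gene HAMP, the exporter gene SLC40A1 and the importer gene SLC11A2. They were measured by RNA sequencing in brain and liver of the Rongchang pig (Sus scrofa), a Chinese domestic breed, with 1 library per tissue and no treatment named in the labels. Members were taken by gene symbol, or by the product name where a row carries a provisional LOC number. Of the 10 named genes, 9 had a row, among 21440 genes in all. These 9 genes comprised 12 rows, 4 of them matched by product. SLC11A2, which encodes the divalent metal transporter, matched no row and was not analysed here. Age, sex, brain region and iron status are not in the labels, nor is it stated whether 1 pig gave both tissues.

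Iron travels in plasma bound to transferrin and enters cells through the transferrin receptor. Surplus iron is kept inside ferritin, a shell of heavy chains, which oxidise iron, and light chains, which favour its storage. Iron leaves cells through ferroportin, the SLC40A1 product. Hepcidin, a peptide hormone of hepatocytes encoded by HAMP, binds ferroportin and triggers its removal from the membrane. Ceruloplasmin, a copper protein, oxidises iron on its way out of cells, and hemopexin collects free haem in plasma.

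Total counts were 23796843 in brain and 31724498 in liver. Values are counts scaled with TMM to a library of 1000000 (CPM), and 1 CPM equals 34.9 counts in brain and 21.6 in liver. The log2 ratio is that of brain over liver CPM with a pseudocount of 1, and genes that reached 1 CPM in either library were called at a 4-fold difference, that is, past a log2 ratio of 2 (higher in brain) or -2 (higher in liver). Without replicates there is no test and no p-value. All intervals are 95% intervals that cover counting error only. Hepatocyte and neuronal markers followed the tissue labels: 5 of 5 hepatocyte markers were called higher in liver, and 4 of 4 neuronal markers in brain. TTR and FGB passed 1 CPM in liver alone, and STMN2, SNAP25 and NEFL in brain alone. Markers of other brain cells were less clear. Of 5 microglia markers, 1 was called higher in brain and 0 in liver. Of 4 brain endothelium markers, 2 were called higher in brain and 1, PECAM1, in liver. In whole tissue, more cells of a type and more RNA per cell cannot be told apart.

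Of the 9 genes, 8 passed 1 CPM, 6 of these were called higher in liver, 0 were called higher in brain, and 2 were not called. Among all 15570 genes tested, 11.3% were called higher in liver and 14.6% in brain. These background shares became 6.02% and 24.1% when libraries were scaled by their plain totals, and 9.08% and 19.2% when the 50 highest genes of either library were left out of the totals. HAMP passed the 1 CPM filter through its liver value alone. The median log2 ratio of the 8 genes was -5.26, beside 0.02 for all genes tested. The genes together took 6.01% of liver counts and 0.296% of brain counts. TF supplied 89.9% of their liver counts, and FTH1 supplied 86.7% of their brain counts.

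**Figure D1:**
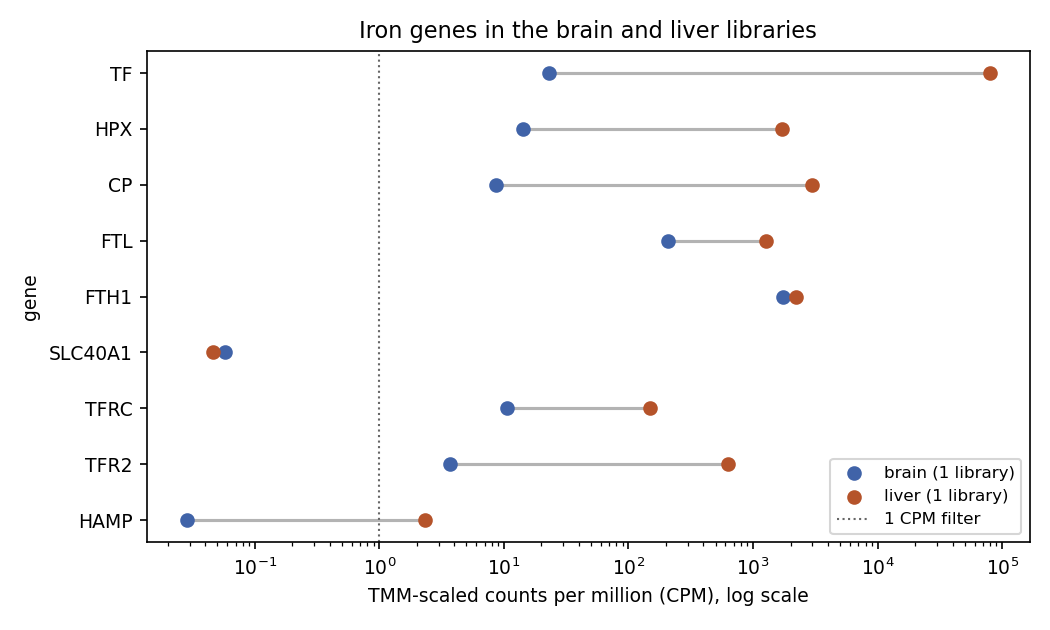
TMM-scaled counts (CPM) of the 9 iron genes in the brain library (blue) and the liver library (orange), on a log scale, with a grey line joining both values of a gene and a dotted line at 1 CPM. TF has the widest gap, from 23.2 CPM in brain to 79326 in liver, FTH1 the narrowest among genes above 1 CPM in both libraries, and both SLC40A1 values lie under 1 CPM.

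Among the plasma carriers, TF, which encodes transferrin, had 810 counts in brain and 1714137 in liver, equal to 23.2 and 79326 CPM. It was 3421-fold higher in liver (3194 to 3670). Of all genes tested, 5 had a lower log2 ratio than TF. It took 5.40% of all liver counts and 0.00340% of brain counts.

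CP had 303 counts in brain and 64367 in liver, or 8.67 and 2979 CPM, a 343-fold difference toward liver (307 to 386). A second row, LOC100158001, with a ceruloplasmin-like product, is part of this sum. It held 17 of the brain counts and 10 of the liver counts, and the Sscrofa11.1 gene table keeps it as a gene of its own beside CP. Without it the log2 ratio of CP moved from -8.27 to -8.34. HPX, the hemopexin gene, had 499 counts in brain and 37097 in liver, or 14.3 and 1717 CPM, a 120-fold difference toward liver (110 to 132). All 3 carriers lay far out on the liver side, where 1.06% of tested genes had a lower ratio than HPX.

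The carriers differed in how much of the liver count was seen in brain. The brain count of TF equalled 0.0473% of its liver count (0.0441 to 0.0506). The same figure was 0.471% for CP (0.419 to 0.527) and 1.35% for HPX (1.23 to 1.47). Among hepatocyte markers it was 0.0262% for ALB, the albumin gene, 0.0439% for TTR, 0.0535% for FGB and 0.0655% for SERPINA1. APOA1 stood apart from these markers at 3.40%. The intervals of TTR, FGB and SERPINA1 overlapped that of TF. The intervals of CP and HPX lay above those of TF, ALB, TTR, FGB and SERPINA1.

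**Figure D2:**
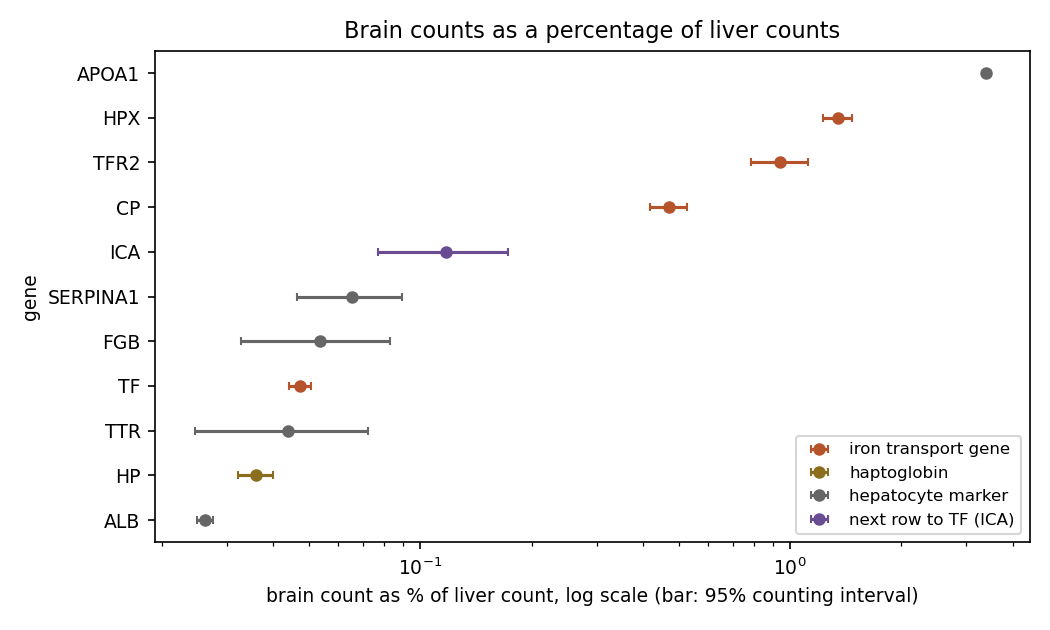
Brain count of each gene as a percentage of its liver count, on a log scale, with bars for the 95% counting interval, for TF, HPX, CP and TFR2 (orange), haptoglobin HP, 5 hepatocyte markers (grey) and ICA. TF at 0.0473% lies among the hepatocyte markers TTR, FGB and SERPINA1, whereas CP, TFR2 and HPX lie at 0.471% to 1.35%.

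If liver reads were present in the brain library at the percentage seen for ALB, they would amount to 449 of the 810 TF counts in brain and would leave 361. The log2 ratio of TF would then be -12.77 in place of -11.68. That of CP would be -8.34, and that of HPX would be -6.84. No gene tested had a lower log2 ratio than ALB. The other hepatocyte markers had higher percentages than ALB, from 0.0439% for TTR to 3.40% for APOA1. At the percentage of ALB, brain counts would thus be left for these markers too. Both sample titles carry the same lane and barcode text and differ in a letter, A for brain and B for liver. Whether any such reads were present was not tested. Transferrin in brain is known from oligodendrocytes and the choroid plexus. Oligodendrocyte markers summed to 2885 CPM in brain and 56.4 in liver. Of the 6 markers, 5 passed the filter, MOBP through its brain value alone, and all 5 were called higher in brain. Of all genes tested, 14.6% were called higher in brain. MOG did not pass, with 21 counts in brain, or 0.60 CPM, and 0 in liver. Choroid plexus markers were sparse in brain, where the 4 with a row summed to 21.0 CPM, FOLR1 alone giving 19.1. In liver they summed to 1748 CPM, of which TTR, also listed as a hepatocyte marker, gave 1580. In brain TTR had 15 counts, or 0.43 CPM. TTR and FOLR1 were called higher in liver, FOLR1 with 168 CPM there. The part of either cell type in the TF value was not tested.

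Ratios of 2 genes inside a library depend neither on the scaling nor on gene length once they are compared between libraries. HPX relative to TF was 28.5 times as high in brain as in liver (25.4 to 31.9), and CP relative to TF was 9.96 times as high (8.70 to 11.4). With the brain counts reduced as above, these became 62.6 and 21.1. Of the 3 carriers, TF had the widest gap between liver and brain. HP, which encodes haptoglobin, the haemoglobin scavenger, had 342 brain and 951477 liver counts. HP relative to HPX was 37.4 times as high in liver (32.5 to 43.1).

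The row next to TF in the table is ICA, the porcine inhibitor of carbonic anhydrase, to which the Sscrofa11.1 table gives the symbol TF as well. It had 26 counts in brain and 22086 in liver and was 1373-fold higher in liver (937 to 2103). It was kept apart from TF here. Its brain percentage of 0.118% (0.0769 to 0.173) lay above that of TF. LTF, the related lactotransferrin gene of milk and neutrophils, had 17 counts in brain and 343 in liver, a 32.6-fold difference (20.1 to 56.7).

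The ferritin chains did not keep the same balance in the 2 tissues. FTL, the light chain gene, had 7204 counts in brain and 27709 in liver, or 206 and 1282 CPM. It was 6.22-fold higher in liver (6.06 to 6.38), with a log2 ratio of -2.63. FTH1, the heavy chain gene, had 61010 counts in brain and 47449 in liver, or 1746 and 2196 CPM, a 1.26-fold difference toward liver (1.24 to 1.27). The direction of FTH1 depends on the scaling: its log2 ratio was -0.33 with TMM and -0.34 with median-of-ratios scaling, but 0.78 with plain totals and 0.13 when the 50 highest genes were left out. FTL stayed on the liver side in all 4 scalings, and at -1.53 with plain totals it was no longer called.

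The balance of the chains does not share this dependence. There were 8.47 FTH1 counts per FTL count in brain and 1.71 in liver. FTL relative to FTH1 was thus 4.95 times as high in liver (4.81 to 5.09). Ferritin genes have processed copies elsewhere in the genome whose reads may be shared. The row LOC100625618, with a heavy chain-like product, added 2 counts per library to FTH1, and the Sscrofa11.1 table lists it as a pseudogene. NCOA4, the receptor that delivers ferritin to lysosomes, had a log2 ratio of -1.51 and was not called.

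The transferrin receptors also differed in their balance. TFRC, the receptor that takes up transferrin in most dividing and iron-using cells, had 367 counts in brain and 3207 in liver. These equal 10.5 and 148 CPM, a 14.1-fold difference toward liver (12.7 to 15.8). TFR2, a hepatocyte receptor that senses iron-loaded transferrin, had 129 counts in brain and 13706 in liver, or 3.69 and 634 CPM. It was 172-fold higher in liver (144 to 206). Both receptors were called higher in liver in all 4 scalings, with the smallest differences under plain totals, at -2.64 for TFRC and -6.08 for TFR2.

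Inside each library, TFR2 had 0.352 counts per TFRC count in brain and 4.27 in liver. TFRC relative to TFR2 was 12.2 times as high in brain as in liver (9.88 to 15.0). Immature red cells carry much TFRC. Of the erythroid markers, HBB had brain and liver levels of 70.4 and 217 CPM, ALAS2 of 15.3 and 46.5 CPM, and SLC4A1 of 3.52 and 18.0 CPM. SLC4A1 was called higher in liver, and none of these 3 was at 0 in either library. Their part in the TFRC difference was not tested. TF relative to TFRC was 242 times as high in liver (212 to 276).

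**Figure D3:**
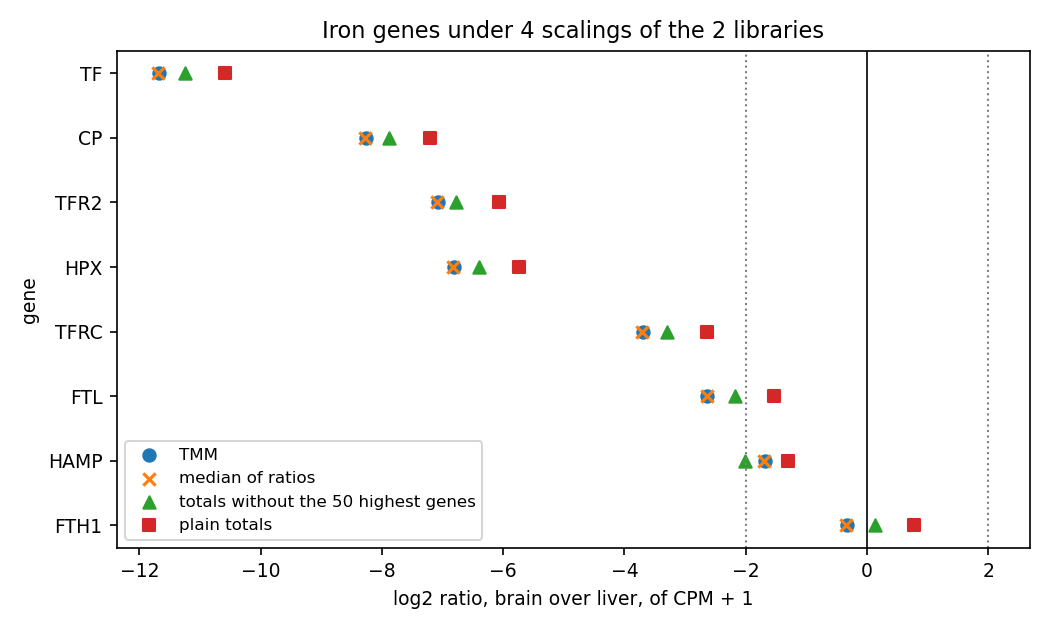
Log2 ratio, brain over liver, of CPM + 1 for the 8 genes that passed 1 CPM, under TMM, median-of-ratios scaling, totals without the 50 highest genes, and plain totals, with dotted lines at the 4-fold limits. Under these scalings FTH1 ranges from -0.34 to 0.78 and crosses 0, HAMP and FTL cross the 4-fold limit, and TF, CP, TFR2, HPX and TFRC stay beyond it on the liver side.

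The hormone gene and the exporter gene were barely sampled. HAMP had 1 count in brain and 50 in liver, or 0.0286 and 2.31 CPM. The ratio of these levels, which rests on 1 brain count, was 80.8 toward liver, with an interval from 13.9 to 3256. Its log2 ratio of -1.69 missed the 4-fold limit because the pseudocount of 1 CPM is large beside such values. With a pseudocount of 0.1 the log2 ratio was -4.23 and HAMP was called, and with 5 it was -0.54. It was also called, at -2.02, when the 50 highest genes were left out of the totals. The HAMP row spans 1443 bp with introns, and none of these levels is corrected for transcript length.

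SLC40A1 had no row under its own symbol. Its 2 product-matched rows were both described as like solute carrier family 40 member 1. LOC100624199 had 2 counts in brain and 0 in liver. LOC100737517, which the Sscrofa11.1 table names SLC40A1, had 0 in brain and 1 in liver. The sums of 2 and 1 lie under the floor of 3 counts, so no fold is given. Near-identical copies in the older gene models can share or lose reads, and this was not tested. Kupffer cells, the liver macrophages, are known to export iron through ferroportin. All 6 of their markers were called higher in liver, beside 11.3% of all genes tested. CD163, MARCO, CLEC4F and TIMD4 passed the 1 CPM filter through their liver value alone. The markers summed to 7.30 CPM in brain and 1513 in liver, where CD5L alone gave 1066.

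Of 20 hepcidin regulators with a row, 18 passed 1 CPM, 5 were called higher in liver and 0 in brain, beside 11.3% and 14.6% of all genes tested. The median log2 ratio of this list was -0.72, and 0.25 with plain totals, where 3 were called toward liver and 1 toward brain. Of all genes tested with plain totals, 6.02% were called toward liver and 24.1% toward brain, and their median was 0.98. HFE2, the hemojuvelin gene, a co-receptor of bone morphogenetic protein signals, had 105 brain and 5533 liver counts (-6.00). TMPRSS6, the protease that cleaves hemojuvelin, had 4 brain and 3895 liver counts (-7.35). FURIN, which processes prohepcidin, was at -3.59.

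IL6R, an interleukin receptor gene, was at -2.65 and STAT3, its signal transducer, at -2.60. With plain totals both missed the limit, at -1.82 and -1.51. IL6ST, the signalling subunit of that receptor, was not called, at -1.69, and at -0.63 with plain totals. The remaining regulators, among them BMP6, SMAD1, SMAD4 and ERFE, were not called. NEO1, the neogenin gene, was at 1.45, and at 2.51 with plain totals. HFE2, TMPRSS6 and FURIN were called higher in liver in all 4 scalings.

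Of 5 genes of intracellular iron and oxygen sensing, 2 were called toward liver and 0 toward brain (background 11.3% and 14.6%). With plain totals 0 were called in either direction (background 6.02% and 24.1%). ACO1, the iron regulatory protein that doubles as cytosolic aconitase, had 1035 brain and 5011 liver counts (-2.93). IREB2, the other iron regulatory protein, had 21 and 124 (-2.07). IREB2 relative to ACO1 was 0.820 times as high in brain as in liver, with an interval from 0.488 to 1.32 that includes equal balance. Neither was called with plain totals, at -1.84 and -1.38. FBXL5, the ubiquitin ligase subunit that removes iron regulatory proteins, was at -1.04, and at 0.05 with plain totals. EPAS1, a hypoxia-inducible factor gene, was at -1.72.

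Of 10 tested genes of iron import, reduction and cytosolic handling, 4 were called higher in liver and 0 in brain, beside a background of 11.3% and 14.6%. With plain totals 3 and 0 were called, beside a background of 6.02% and 24.1%. SLC39A8 and SLC39A14, metal importers that also take up iron not bound to transferrin, were at -5.05 and -3.74. STEAP3, the endosomal ferrireductase of the transferrin cycle, had 6 brain and 658 liver counts (-4.75). STEAP4 was at -2.62, and at -1.99 with plain totals. PCBP1 and PCBP2, RNA-binding proteins that also deliver iron to ferritin, were at -0.82 and -0.93, and at 0.28 and 0.18 with plain totals.

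Among oxidation and haem transport genes, 2 of 6 were called toward liver and 0 toward brain (background 11.3% and 14.6%). With plain totals 1 and 0 were called (background 6.02% and 24.1%). The median was -0.94, and 0.06 with plain totals, where that of all genes was 0.98. FLVCR2 was at -3.79, and SLC46A1, a folate and haem carrier, at -2.01 (-1.26 with plain totals). FLVCR1 and ABCG2 were at -1.26 and -0.62, the latter at 0.40 with plain totals. HEPH, the membrane-bound relative of ceruloplasmin, was at 0.36 and not called. Of 7 scavenging genes, 4 were called toward liver and 0 toward brain (background 11.3% and 14.6%). With plain totals 3 and 0 were called (background 6.02% and 24.1%). The 4 called with TMM were HP (-11.99), the macrophage receptor gene CD163 (-5.92), HMOX1 (-4.60), which opens the haem ring, and BLVRB (-2.59, and -1.56 with plain totals). HMOX2, the constitutive haem oxygenase, was at -0.45 and BLVRA at 0.60, and neither was called. HMOX2 turned to 0.65 with plain totals.

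SLC22A17 was the pathway gene called higher in brain. Its product is a receptor for lipocalin 2, an iron-siderophore carrier, and it had 16127 counts in brain and 114 in liver, or 462 and 5.28 CPM (6.20). LTF (-3.50) was called toward liver in the same list of 4. The list thus had 1 call each way, with TMM and with plain totals. Background shares are 11.3% toward liver and 14.6% toward brain, and 6.02% and 24.1% with plain totals. SCARA5, a ferritin receptor gene, was at -0.83 (0.20 with plain totals).

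Of 11 tested genes of mitochondrial iron and iron-sulphur clusters, 1 was called toward liver, a share near the 11.3% of all genes. With plain totals 0 were called, beside 6.02% of all genes. The median was -0.91, and 0.15 with plain totals, where that of all genes was 0.98. The called gene was NFS1, the cysteine desulphurase, at -2.34 (-1.28 with plain totals). HSPA9 was at -1.77, ISCA1 at -0.52 and ISCU at -0.07, with the latter pair at 0.58 and 1.03 under plain totals. Of 3 tested copper genes that supply ceruloplasmin, 1 was called toward liver and 0 toward brain, with TMM and with plain totals. Background shares are 11.3% and 14.6% with TMM, and 6.02% and 24.1% with plain totals. The called gene was ATP7B, the hepatic copper pump, with 10 brain and 199 liver counts (-2.99). ATP7A was at -0.27, and at 0.57 with plain totals. ATOX1 was at -1.62, from a row whose deposited length is 81 bp.

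**Figure D4:**
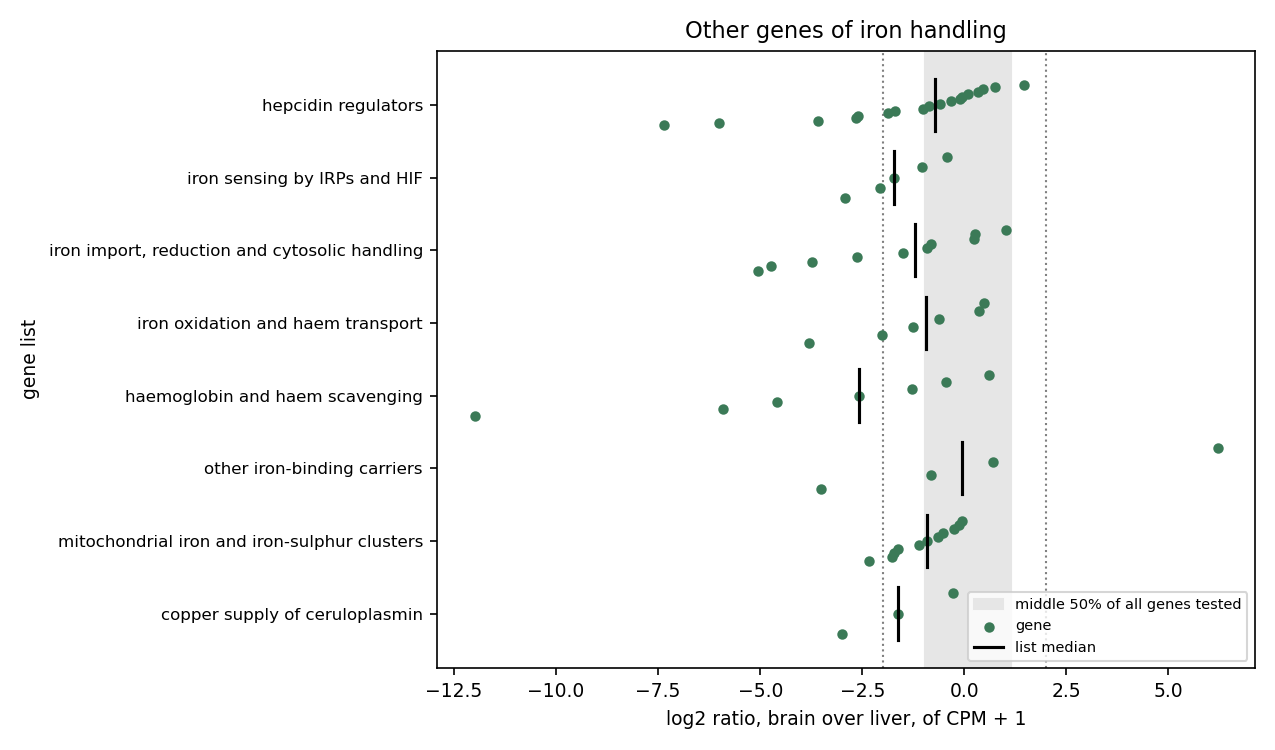
Log2 ratio, brain over liver, of CPM + 1 for 64 other genes of iron handling in 8 lists, with the list median as a black bar, the middle 50% of all genes tested as a grey band and dotted lines at the 4-fold limits. In all, 20 genes lie beyond the limit on the liver side and 1, SLC22A17, on the brain side.

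Over all 8 lists, 20 of 64 tested genes were called higher in liver and 1 in brain, beside background shares of 11.3% and 14.6%, and the median log2 ratio was -1.03. With plain totals 12 and 2 were called, beside background shares of 6.02% and 24.1%. The median was then 0.05, beside 0.98 for all genes tested. The 12 genes called toward liver in all 4 scalings included HP, TMPRSS6, HFE2, CD163, SLC39A8, STEAP3 and HMOX1. Of the genes called toward liver with TMM, some passed the 1 CPM filter through their liver value alone. These were TMPRSS6, IREB2, STEAP3, STEAP4, SLC46A1, CD163, LTF and ATP7B. A further 20 genes changed sign between scalings.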

How the data were processed

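Raw counts per gene row, 1 column per tissue, were deposited by the authors. The unit rests on the values: all are whole, and the columns differ in total. TopHat and the build Sscrofa10.2 (susScr3) are named per the submitters' processing notes. For the counting program and its strand setting, the sources used here give nothing, so overlapping genes may share reads. The deposited gene length, in bp, was read as a genomic span.

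Rows with a LOC number were named through the Sscrofa11.1 RefSeq table (6594 by gene number, 21 by accession), 235 other names by synonym, and 7002 of 21817 rows stayed unnamed. Rows of 1 gene were summed. TMM factors (edgeR 4.0.16, R 4.3.3) were 1.47 for brain and 0.681 for liver. Fold intervals are exact conditional binomial intervals, and intervals of ratios of ratios are exact conditional ones (scipy 1.17.1). DESeq2 1.42.0 gave median-of-ratios factors. Calls were run on simulated counts, drawn from a profile shared by both libraries, with counting error only and equal numbers of genes raised and lowered. Such counts cannot show how the calls depend on scaling, on differences between animals or on carried-over reads.

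Members, pathway lists and markers were chosen with earlier results of these data known. Named genes are all members and, per pathway list, genes called at 4-fold and the 3 with the highest mean CPM. BMP6, SMAD1, SMAD4, ERFE, NEO1, IL6ST and HEPH were chosen after their values were seen. Of 79 listed pathway symbols, some of them aliases, 68 had a row. Of the erythroid markers, 1 is not reported here.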

Additional observations from a re-analysis of the deposited data

How the results depend on the processing

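Under the 12 alternatives, 5 to 7 iron genes were called higher in liver and 0 in brain. FTL was lost with plain totals and at 8-fold. HAMP was gained with a pseudocount of 0.1, at 2-fold and with the 50 highest genes left out. TFRC, TFR2, HPX, CP and TF kept the direction and the call under the 4 scalings. Calls over all genes depended on the settings: 1767 genes toward liver became 953 with plain totals, 1116 with a pseudocount of 5, 3800 at 2-fold and 887 at 8-fold. The 2279 toward brain became 3820, 1231, 4285 and 1330. Liver calls made up 43.7% of all calls with TMM, 20.0% with plain totals and 32.1% when the 50 highest genes were left out of the totals. Plain totals moved the median log2 ratio of all genes from 0.02 to 0.98. Subtracting brain counts at ALB's percentage, and liver counts at STMN2's, changed brain-over-liver ratios of gene pairs. TF to TFRC went from 0.00413 to 0.00185, CP to TF from 9.96 to 21.1, HPX to TF from 28.5 to 62.6 and HP to HPX from 0.0267 to 0.00742. This follows from the smaller brain counts of TF and HP. Of 27 named genes called with TMM, 18 kept the call with plain totals, 25 with the 50 highest genes left out and 21 with a pseudocount of 5. Pairs with SLC40A1 gave no value at its depth. No paired analysis was possible because each tissue has 1 library.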
